A study of Mus musculus with 12 samples.

Results

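The genes described are 8 components of B cell receptor signalling, namely the kinases Syk, Lyn and Blk, the adaptors Blnk and Bank1, the enzymes Plcg2 and Prkcb, and the inhibitory co-receptor Cd22. Every CpG that the deposited annotation assigned to 1 of these 8 symbols was taken, which gave 503 of the 760348 CpGs measured in each of the 12 samples. Symbols are those of the transcript closest to the CpG in mm9. By gene there were 140 CpGs for Plcg2, 92 for Prkcb, 75 for Syk, 43 for Blnk, 43 for Cd22, 40 for Blk, 37 for Bank1 and 33 for Lyn. The annotation placed 407 of the 503 inside or at the promoter of the gene itself and the other 96 between genes.

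Naive B cells of mouse spleen (B220+ CD43-) were labelled with CFSE or CTV, dyes that are diluted at each division, transferred into uMT mice and left overnight before the hosts received lipopolysaccharide (LPS), a bacterial product that makes B cells divide and become antibody-secreting cells. On day 3 the transferred cells of each of 2 hosts, numbered 196 and 197, were sorted into 6 fractions. These were cells that had not divided (Div0), cells of division 1, 3 and 5 (Div1, Div3, Div5), and cells with at least 8 divisions that lacked CD138 (Div8neg) or carried it (Div8pos), CD138 being a surface protein of antibody-secreting cells. All fractions had received LPS, so Div0 is the undivided fraction of a challenged host and not an unstimulated control. The samples are labelled as spleen of females aged 8 weeks. The series' design names C57/BL6J donors, whereas the strain label of the samples is B6.SJL-Ptprca Pepcb/BoyJ. uMT hosts lack mature B cells and keep their other blood cells.

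When antigen crosslinks the B cell receptor, Src-family kinases such as Lyn and Blk phosphorylate the receptor's signalling chains and Syk docks on them. Syk then phosphorylates the adaptor Blnk, on which phospholipase Cγ2 (Plcg2) is activated, and the second messengers it makes release calcium and switch on protein kinase Cβ (Prkcb), which leads to NF-κB activation. Cd22 restrains this response by recruiting phosphatases, and Bank1 is a scaffold that binds Lyn. Methylation of CpGs near a start site is commonly read together with low transcription, but RNA was not analysed here.

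The density of CpGs around start sites differs between these genes, so promoters of both kinds are shown. The sequences are RefSeq's for GRCm38.p6, 250 bases before to 50 after the start, 5′ to 3′ on the gene's strand, with each CG in capitals. They stand for the CpG content of the promoters only, since the methylation data are in mm9 and coordinates were not converted between builds. The first start site of Syk (chr13:52583187-52583486, + strand) holds 31 CGs, a number reached by 10.6% of all 32851 promoters of the table. The second, which lies 13445 bp downstream and in front of intronic Syk CpGs described below (chr13:52596632-52596931, + strand), holds 2 CGs. Blnk (chr19:40994172-40994471, - strand) holds 7, the median of all promoters.
Syk, first start site: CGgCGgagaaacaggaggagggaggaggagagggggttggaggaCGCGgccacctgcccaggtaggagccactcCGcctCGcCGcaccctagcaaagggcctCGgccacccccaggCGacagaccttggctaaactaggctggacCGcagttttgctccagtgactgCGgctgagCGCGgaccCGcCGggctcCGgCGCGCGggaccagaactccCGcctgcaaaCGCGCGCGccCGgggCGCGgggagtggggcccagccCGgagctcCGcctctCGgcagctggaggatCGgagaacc
Syk, second start site: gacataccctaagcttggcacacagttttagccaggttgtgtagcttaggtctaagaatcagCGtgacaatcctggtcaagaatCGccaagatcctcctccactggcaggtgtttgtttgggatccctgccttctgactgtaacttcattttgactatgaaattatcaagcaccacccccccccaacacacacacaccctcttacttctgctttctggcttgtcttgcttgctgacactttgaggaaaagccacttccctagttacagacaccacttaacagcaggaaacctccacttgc
Blnk: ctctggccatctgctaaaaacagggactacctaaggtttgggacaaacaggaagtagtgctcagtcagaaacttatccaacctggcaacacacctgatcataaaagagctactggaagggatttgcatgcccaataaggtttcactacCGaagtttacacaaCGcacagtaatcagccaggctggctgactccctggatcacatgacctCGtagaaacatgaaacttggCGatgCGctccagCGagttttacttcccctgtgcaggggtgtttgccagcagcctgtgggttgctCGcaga
Among the other members with a promoter in that table, Plcg2 had 21 CGs and Prkcb 19, against 4 in Cd22 and 3 in Bank1.

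The assay was reduced representation bisulfite sequencing (RRBS), in which restriction fragments rich in CpGs are sequenced after bisulfite conversion and each read over a CpG is counted as methylated or unmethylated. Reads over all CpGs numbered between 17969105 and 56775157 per library. At the 503 CpGs the median coverage was 21 to 57 reads in host 196 and 43 to 67 reads in host 197, so single CpGs were measured less precisely in host 196. The mean level over all 760348 CpGs was 50.2% in host 196 and 49.6% in host 197 in Div8pos, against 56.2% and 55.9% in Div0. As a check of the labelled cell type, promoter CpGs of Pax5 and Cd79a, which are active in B cells, were between 0 and 14.5% methylated in all 12 samples, and those of the T cell genes Cd3e, Cd4 and Cd5 between 80.7% and 100%. The myeloid genes differed from one another. Promoter CpGs of Itgam were between 77.1% and 97.6%, those of Mpo between 31.7% and 50.9%, and those of Cebpa between 1.78% and 3.81%. Low promoter methylation was thus not limited to the B cell genes. Of the 17 marker genes listed, 8 had no promoter CpG in the data.

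All 8 genes had a lower mean level in Div8pos than in Div0 in both hosts, and 6 of them passed the test, with differences between -10.7 and -16.2 percentage points. A gene's level here is the mean percent methylation of its CpGs, and a call needed a limma adjusted p below 0.05 and a difference of 10 points or more. Of all 16816 genes with at least 5 CpGs, 16% were called lower in this comparison. The median difference of the 8 genes was -11.4 points, against -5.8 over all genes.

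Blnk, the adaptor, stood at 32.7% in host 196 and 34.1% in host 197 in Div8pos, against 50.8% and 48.4% in Div0 (difference -16.2 points, SE 0.909, limma adjusted p = 1.89e-06). Syk, the kinase that docks on the phosphorylated receptor chains, stood at 40.9% and 39.7% in Div8pos, against 54.2% and 53.3% in Div0 (-13.4 points, SE 0.696, limma adjusted p = 1.58e-06). The hosts of the 2 fractions did not overlap for either gene. Ranked by loss among the 16816 genes, Blnk was number 369 and Syk number 836. Bank1 fell by 12 points (SE 0.804, limma adjusted p = 2.97e-06), Cd22 fell by 11.8 (SE 0.59, limma adjusted p = 1.52e-06) and Prkcb fell by 11.1 (SE 0.65, limma adjusted p = 2.03e-06). Blk fell by 10.7 points (SE 1.44, limma adjusted p = 0.0001), with differences of -6.97 in host 196 and -14.5 in host 197, and fell short of the 10-point limit at -8.24 without the Div0 library of host 197 and at -9.47 without the Div8pos library of host 197. Lyn and Plcg2 were not called because their differences were below 10 points. Lyn averaged 31.0% in Div8pos and 38.0% in Div0 (-7.05 points, SE 0.717), and Plcg2 averaged 67.0% in Div8pos and 72.2% in Div0 (-5.2 points, SE 0.622).

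**Figure D1:**
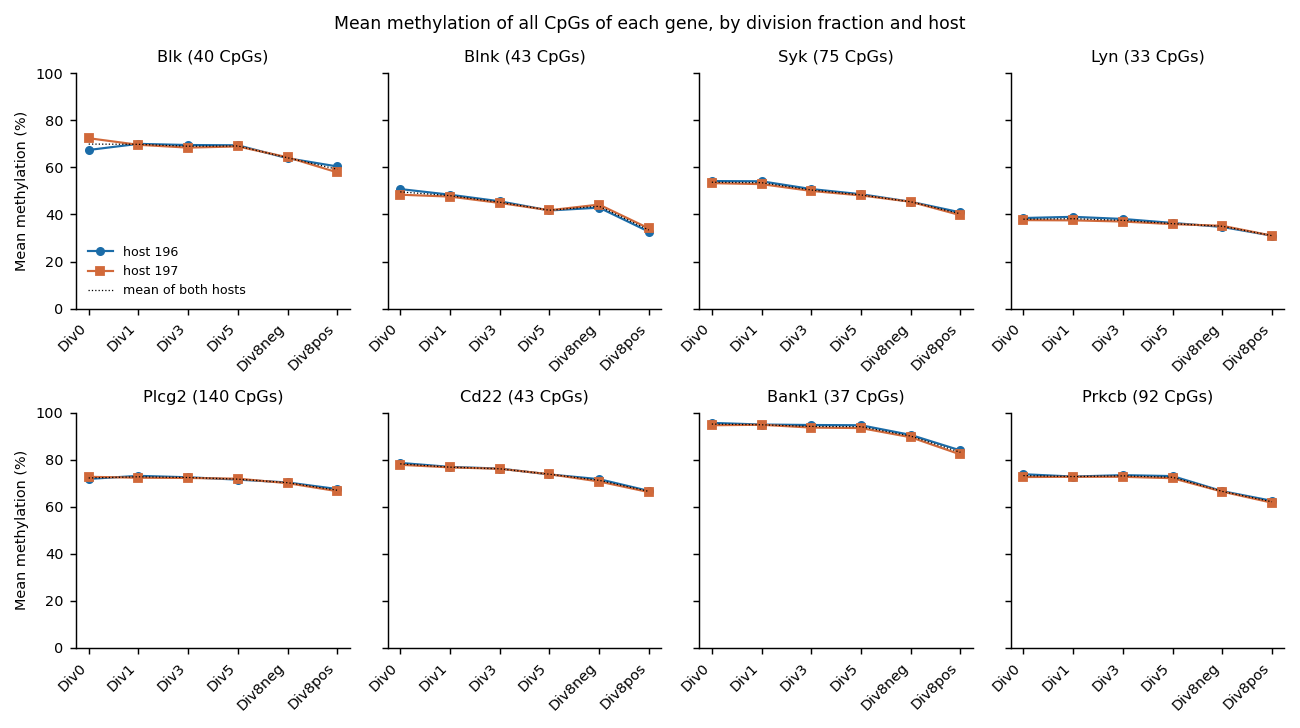
Mean methylation (%) of all CpGs of each of the 8 genes (vertical axis) in the 6 fractions from Div0 to Div8pos, with 1 line per host and a dotted line for their mean. Each gene is lowest in Div8pos in both hosts, and Blnk is the gene whose Div8neg mean (43.5%) is above its Div5 mean (41.8%).

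In Div5 the median difference of the 8 genes from Div0 was -1.49 points. In the order of the fraction means, Cd22 was lower at each step from Div0 through Div8pos (78.2, 76.8, 76.1, 73.8, 71.2 and 66.5%) without overlap of the hosts between neighbours. For Syk and Blnk the neighbours Div0 and Div1 overlapped between hosts, and for Plcg2 the fractions Div0, Div1, Div3 and Div5 formed a run of overlapping neighbours. In Prkcb too, neighbouring levels from Div0 to Div5 overlapped (73.2, 72.8, 73.1 and 72.5%), whereas Div8neg was at 66.5% and Div8pos at 62.1%. In Div8neg against Div0 none of the 8 genes was called by limma, with differences between -2.08 and -8.3 points, while 1.34% of all genes were called lower. In Div5 against Div0 again none was called, against 0.101% of all genes. At an unadjusted limma p below 0.05 without a size limit, all 8 were lower in Div8neg and 4 of 8 in Div5. The share of all genes at that looser limit was not determined, so these counts are not read as a trait of the 8. Over all genes the median difference from Div0 was -2.58 points in Div8neg and -0.677 in Div5. Between Div8pos and Div8neg 1 of the 8 was called, Blnk, at 33.4 ± 1.0% in Div8pos and 43.5 ± 0.874% in Div8neg (SD, n = 2 each; -10.1 points, limma adjusted p = 0.000157), against 1.94% of all genes. That call fell just short of the 10-point limit without Div8pos of host 196 (-9.41) or without Div8neg of host 197 (-9.5).

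Single CpGs were tested on their read counts with a quasi-binomial logistic model, with p-values adjusted over all 760348 CpGs and a limit of 20 points. Of the 503 CpGs, 70 (13.9%) were lower in Div8pos than in Div0 and 0 were higher, against 6.61% lower and 0.0271% higher of all CpGs. Syk held 14 of the 70, Blnk 13, Prkcb 13, Blk 8, Plcg2 8, Cd22 7, Bank1 4 and Lyn 3. In all 70 both hosts were lower and the hosts of the 2 fractions did not overlap, which the call itself favours. The same count over all called CpGs of the table was not determined. The medians of these 70, whose ends the call fixed, were 89.2% in Div0, 86.9% in Div1, 82.3% in Div3, 75.9% in Div5, 59% in Div8neg and 41.5% in Div8pos. Without the Div0 library of host 197, 41 CpGs were called. With a dispersion estimated for each CpG alone no CpG passed the adjusted limit, among members or in the whole table. An unadjusted quasi-binomial p below 0.05 with a fall of 20 points was then found at 67 of the 503 member CpGs. The same limit was met by 49943 of all 760348 CpGs.

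Because a CpG must be methylated to lose methylation, the members were also read by their level in Div0. Of the 63 CpGs between 20% and 80% in Div0, 27 (42.9%) were lower in Div8pos, against 14.1% of all CpGs at that level. Of the 314 CpGs at 80% or more in Div0, 43 (13.7%) were lower, against 10.2% of all. Of the 126 CpGs under 20%, 0 could meet the limit. Among CpGs with at least 20% in Div0, the share that was lower ran from 48.1% in Blnk and 31.8% in Syk through 22.9% in Blk, 21.4% in Lyn, 17.9% in Cd22, 17.6% in Prkcb and 10.8% in Bank1 to 7.48% in Plcg2, the whole table being at 10.8%.

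Position separated the CpGs further. Of the 86 CpGs within 1 kb of a start site of their own gene, 78 were under 20% in Div0, and their mean was 4.79% in Div8pos and 6.88% in Div0. At the 4 CpG-dense start regions methylation was low in both fractions. Means were 2.65% in Div8pos and 2.02% in Div0 over 30 CpGs of Syk, 1.37% and 1.78% over 18 CpGs of Lyn, 1.1% and 0.965% over 17 CpGs of Plcg2, and 1.17% and 1.22% over 13 CpGs of Prkcb. Blnk and Cd22 had methylated CpGs near their start sites and gave the 4 calls within 1 kb, 3 in Blnk and 1 in Cd22. Beyond 1 kb the 417 CpGs averaged 68.3% in Div8pos and 80% in Div0, and 66 were called. The shares of all CpGs called within and beyond 1 kb were not determined. Over the whole table CpGs of the promoter class were also low, with means of 13.8% in Div8pos and 15.8% in Div0. By class, 51 of 273 intronic CpGs (18.7%) were lower, against 8.6% of all intronic CpGs, and 2 of 72 exonic CpGs (2.78%), against 3.19% of all exonic CpGs. Of the 34 CpGs of the promoter class, 7 (20.6%) were lower, 6 of them in Blnk, against 2.22% of all promoter CpGs.

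**Figure D2:**
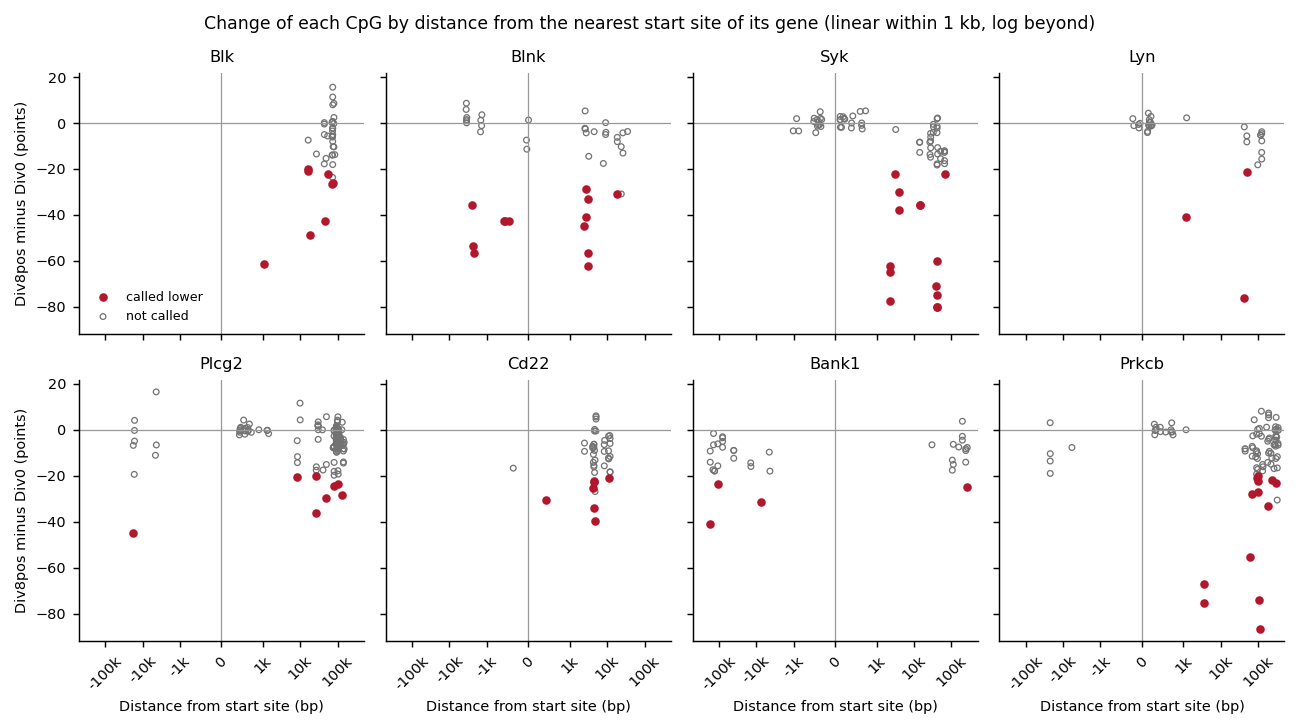
Difference in methylation of each CpG, Div8pos minus Div0 in percentage points (vertical axis), by its distance from the nearest start site of its own gene in bp (horizontal axis, linear within 1 kb and logarithmic beyond, positive downstream). Filled points are the 70 called CpGs and open points the others. Points of Syk, Lyn, Plcg2 and Prkcb within 1 kb lie near 0, and the called ones lie farther out.

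Neighbouring CpGs were then joined into clusters of at least 3 CpGs, each at most 200 bp from the next, numbered along the chromosome. The 8 genes had 67 clusters, and 22 (32.8%) were lower in Div8pos than in Div0 by limma at 10 points or more, against 25.7% of all 81980 clusters. The median difference was -7.15 points in the 67 and -6.09 over all clusters. The calls were spread over all 8 genes, with 5 in Prkcb, 4 in Blnk, 4 in Plcg2, 3 in Syk, 2 in Cd22, 2 in Bank1, 1 in Blk and 1 in Lyn. No cluster was higher in Div8pos, against 0.0646% of all. In Div8neg against Div0, 11 clusters (16.4%) were lower, against 4.79% of all, and 2 (2.99%) were higher, against 0.249% of all. Without the Div0 library of host 196 the count of lower clusters was 4. Of the 11, Syk cluster 4 and Blnk clusters 3 and 7 passed with any 1 library of either fraction left out. Gene, cluster and CpG tests use the same reads and do not support one another.

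**Figure D3:**
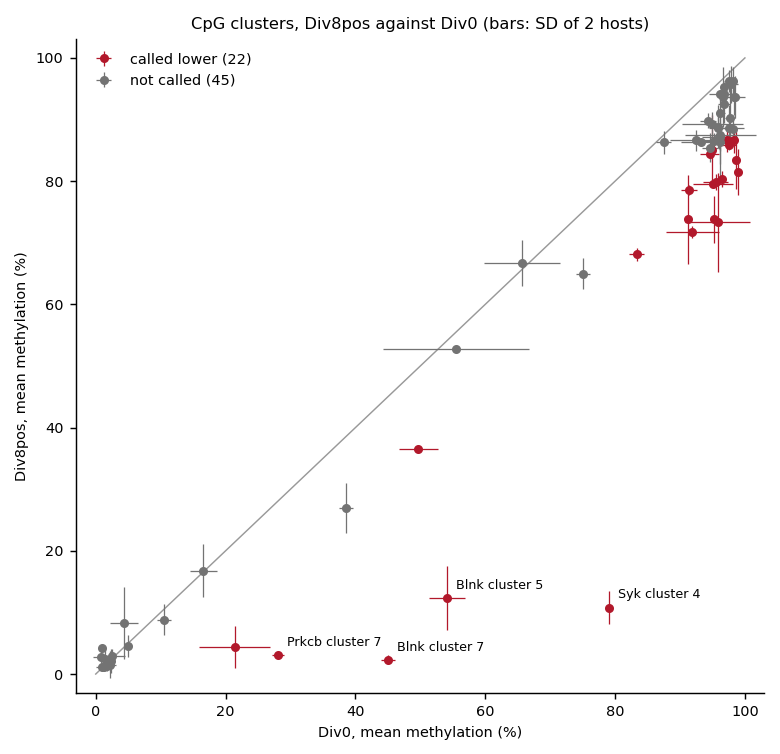
Mean methylation (%) of the 67 clusters in Div8pos (vertical axis) against Div0 (horizontal axis), with bars for the SD of the 2 hosts and a line of equality. Red points are the 22 clusters called lower and grey points the other 45. Syk cluster 4 and Blnk clusters 5 and 7 lie farthest below the line, and the clusters near 0 on both axes are those of start regions and a few others.

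Syk had the cluster with the largest difference of the 67. Cluster 4 is made of 3 intronic CpGs at chr13:52694554-52694594 (mm9), 2303 to 2343 bp downstream of the second start site. From Div0 to Div8pos its level was 79.4, 83.3, 56.4, 39.9, 27.8 and 8.91% in host 196, and 78.8, 65.2, 52.5, 28.2, 26.0 and 12.7% in host 197. The level was lower at each step from Div1 onward in both hosts. The difference between Div8pos and Div0 was -68.3 points (SE 5.53, limma adjusted p = 0.000114). The difference from Div0 was -52.3 points in Div8neg (limma adjusted p = 0.00226) and -45.1 in Div5 (limma adjusted p = 0.0226). The Div5 call was lost without Div0 of host 196, Div0 of host 197 or Div5 of host 197 (limma adjusted p = 0.213, 0.124 and 0.121). Div8pos and Div8neg differed by -16.1 points, which did not pass (limma adjusted p = 0.0787). The median coverage was 33 reads per CpG and sample, and the lowest was 10.

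A second stretch of Syk lay in an intron about 40 kb downstream of the same start site, with 5 CpGs spaced too widely to form a cluster. The CpG at chr13:52732381 (mm9) had 9.09% methylation in host 196 (95% Wilson interval 3.59 to 21.2%, 44 reads) and 7.81% in host 197 (3.38 to 17.0%, 64 reads) in Div8pos, against 92.0% and 85.0% in Div0. Its difference of -80 points (quasi-binomial adjusted p = 3.02e-24) was shared by its neighbour 14 bp away at 52732367, at 22.5% and 8.0% in Div8pos and 95.5% and 95.1% in Div0. At both, the levels in Div5 were between 42.6% and 67.9% and in Div8neg between 34.5% and 48.6%. The other 3 CpGs of the stretch, named after their values were seen, had differences between -60.1 and -74.9 points and were also called. Syk cluster 5, in an exon, fell by 20.2 points (71.7 ± 0.985% in Div8pos, 91.9 ± 4.11% in Div0, SD, n = 2 each) and cluster 10, beyond the gene's end, fell by 15.5. At the first start site, cluster 3 averaged 2.43% in Div8pos and 1.37% in Div0 (limma adjusted p = 0.555).

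Blk and Lyn, the Src-family kinases, had 8 and 3 CpGs called lower in Div8pos than in Div0. In Blk the CpG at chr14:64034976, 1048 bp downstream of the start site, had 8.7% and 7.69% in Div8pos, against 65.4% and 74.1% in Div0 (difference -61.5, quasi-binomial adjusted p = 7.51e-16). Its levels in Div3 were 37.8% and 35.8%, close to those in Div5 (40.0% and 42.6%). The CpG at chr14:64017500 followed, with a difference of -48.6 points. Blk cluster 6, of 3 intronic CpGs (chr14:64019860-64019997), was the 1 of 6 Blk clusters that was called, with 79.5% and 81.3% in Div8pos and 96.2% and 96.8% in Div0 (difference -16.1, limma adjusted p = 0.00155). Of Blk's 40 CpGs, 30 lay outside its transcript and averaged 55.6% in Div8pos and 63.4% in Div0, whereas the 10 inside averaged 69.9% and 89.4%.

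In Lyn the CpG at chr4:3647409, in an intron 42141 bp downstream of the start site, had 9.3% (95% Wilson interval 3.68 to 21.6%) and 5.13% (2.01 to 12.5%) in Div8pos, against 84.2% and 82.7% in Div0 (difference -76.2, quasi-binomial adjusted p = 3.52e-22). Host 196 and host 197 still had 78.8% and 55.6% in Div5 and 28.6% and 46.9% in Div8neg. A CpG 1149 bp downstream of the start site, at chr4:3606417, stood at 3.23% and 2.56% in Div8pos and 41.2% and 46.4% in Div0. Cluster 2 fell by 11.8 points (limma adjusted p = 0.000839). Cluster 1, with 18 CpGs across the start site, stayed under 6% in all 12 samples.

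Blnk was the 1 of the 8 genes with several called CpGs close to a start site. The start of its longer transcript is at chr19:41069025 (mm9) on the minus strand, and that of a shorter transcript is at 41034352. Cluster 7 covers 3 promoter CpGs 471 to 580 bp upstream of the first of these (chr19:41069496-41069605). From Div0 to Div8pos it was at 44.2, 32.1, 27.3, 11.9, 15.9 and 2.83% in host 196, and 45.7, 40.3, 24.7, 16.6, 13.9 and 1.87% in host 197. Div8pos was the lowest fraction, and Div5 and Div8neg overlapped. The difference was -42.6 points for Div8pos (SE 2.64, limma adjusted p = 3.56e-05), -30.1 for Div8neg (limma adjusted p = 0.00108) and -30.7 for Div5 (limma adjusted p = 0.00371), each against Div0. Div8pos was also below Div8neg (difference -12.5, limma adjusted p = 0.0165), a call lost without Div8neg of host 196 (0.0715) or Div8pos of host 197 (0.0603).

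Farther upstream in the same promoter class, 3 more CpGs at 41071178, 41071413 and 41071430 were called, with differences of -56.5, -53.6 and -35.8 points. Between these and cluster 7, cluster 8 was at 8.24% or less in all 12 samples. It had 1.67% and 1.84% in Div8pos, 4.29% and 8.24% in Div8neg and 2.45% and 1.17% in Div0. Inside the gene, cluster 5 (4 intronic CpGs, chr19:41065818-41066013) had 8.76% and 16.1% in Div8pos, 32.9% and 39.3% in Div8neg and 56.0% and 52.2% in Div0. Div8pos was lower than Div0 (difference -41.7, limma adjusted p = 0.0001) and lower than Div8neg (difference -23.7, limma adjusted p = 0.00414). The CpG of this cluster at 41065991 fell most, to 10.0% and 23.1% in Div8pos, against 83.3% and 74.1% in Div0 (quasi-binomial adjusted p = 3.52e-09), and that at 41065968 followed with a difference of -56.8 points.

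The neighbouring cluster 6 of Blnk, 7 intronic CpGs at chr19:41066244-41066648, did not follow the order of divisions. It was at 11.2% and 11.7% in Div5, stood at 25.1% and 25.3% in Div8neg, and was at 1.96% and 6.86% in Div8pos, against 25.3% and 17.5% in Div0. Div8pos was below Div8neg (difference -20.8, limma adjusted p = 0.00342) and below Div0 (difference -17.0, limma adjusted p = 0.0016), whereas Div8neg and Div0 differed by 3.81 points (limma adjusted p = 0.393). With at least 20 reads in every sample the difference between Div8pos and Div0 was -7.65 points, under the limit of 10. The difference between Div8neg and Div5 was not tested. At the second start site, cluster 3 was lower in Div8neg than in Div0 (78.0% and 92.5%, limma adjusted p = 0.00903) and not called in Div8pos (86.6%, limma adjusted p = 0.0593). Cluster 1 fell by 15.1 points in Div8pos.

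**Figure D4:**
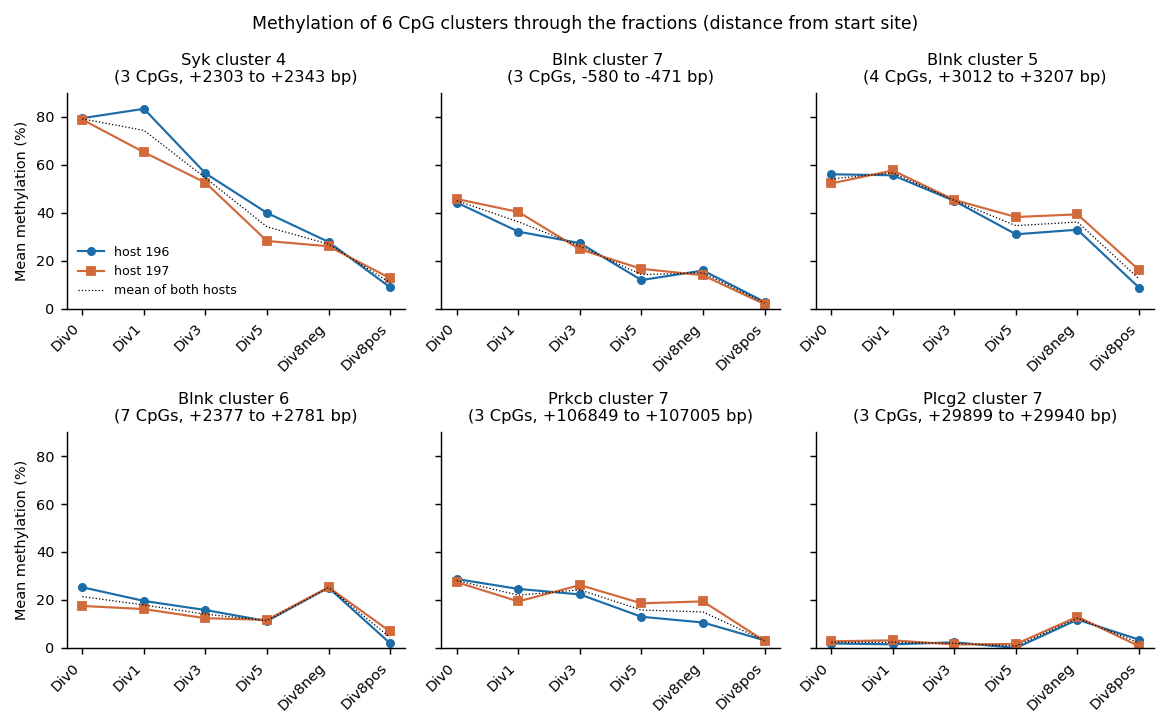
Mean methylation (%) of 6 clusters (vertical axis) in the 6 fractions from Div0 to Div8pos, with 1 line per host, a dotted line for their mean and the distance from the start site above each panel. Syk cluster 4 and Blnk cluster 7 decline before division 8, Blnk cluster 6 is at 25.2% in Div8neg and 4.41% in Div8pos, and Plcg2 cluster 7 is at 12.4% in Div8neg and at most 3.45% elsewhere.

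Bank1, the scaffold of Lyn, was the most methylated of the 8 genes, at 95.1% in Div0, with 37 CpGs that were all above 20% there. No CpG of it lay within 1 kb of a start site. Outside its transcripts lay 29 of the 37, among them all 4 called CpGs, with means of 82.2% in Div8pos and 94.3% in Div0. The 8 inside averaged 86.1% and 97.9%, and 0 of them were called. Cluster 4, 3 CpGs between genes at chr3:136158296-136158424, had 71.1% and 76.5% in Div8pos, against 91.1% and 85.4% in Div8neg and 95.1% and 95.5% in Div0. It was lower in Div8pos than in Div0 (difference -21.5, limma adjusted p = 0.000274) and than in Div8neg (difference -14.4, limma adjusted p = 0.00568). These CpGs lie at -169286 to -169414 bp from the nearest mm9 start site of Bank1, which the files list as their nearest gene. The CpG at 136158296 had 50% and 55% in Div8pos and 93.8% and 93.5% in Div0, and that at 135996514 had 57.1% and 58.6% in Div8pos and 89.5% and 89.4% in Div0. Neither call held without Div0 of host 197 (quasi-binomial adjusted p = 0.0746 and 0.157), and the second was also lost without Div8pos of host 197 (0.117). Cluster 2 fell by 10.1 points, which fell just under 10 without Div0 of host 196 (-9.08) or Div8pos of host 197 (-9.54).

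Plcg2 had the most CpGs and the smallest share of falls. Of its 107 CpGs with at least 20% in Div0, 8 were called in Div8pos. Clusters 5, 8, 4 and 9, in its introns and for cluster 9 partly in an exon, had differences of -22.5, -13.1, -12.8 and -10.5 points in Div8pos. Cluster 5 (chr8:120048669-120048875) had 79.0% and 67.6% in Div8pos, 93.4% and 91.2% in Div8neg and 92.3% and 99.3% in Div0, so its difference was -13.3 points in host 196 and -31.7 in host 197. The calls of clusters 8 and 9 each depended on 1 library, with cluster 8 at limma adjusted p = 0.0533 without Div0 of host 196 and cluster 9 at -9.17 points without Div8pos of host 197. The largest single fall was at chr8:120004746, -17445 bp from the start site, with 0 and 5.56% in Div8pos and 33.3% and 62.5% in Div0. The next, at 120048864 in cluster 5, had a difference of -36.1 points, a call lost without Div0 of host 197 (quasi-binomial adjusted p = 0.115). The 17 CpGs of cluster 2, just inside the gene, were at most 3.69% in any sample.

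Plcg2 also held the 2 of the 67 clusters that were called higher in any of the 4 comparisons. Smaller rises in Div8neg were not limited to them. Over the 126 member CpGs under 20% in Div0 the median difference of Div8neg from Div0 was 1.55 points. It was 0 over all CpGs at that level, and these medians were not tested. Clusters 6 and 7, in an intron about 30 kb downstream of the start site (chr8:120051724-120051881 and chr8:120052090-120052131), were at 5.08% or less in every sample outside Div8neg. Cluster 6 had 12.8% and 9.8% in Div8neg, against 0 and 1.75% in Div0 (difference 10.4, limma adjusted p = 0.00872). Cluster 7 had 11.8% and 13.0% in Div8neg, against 1.85% and 2.78% in Div0 (difference 10.1, limma adjusted p = 0.00502). In Div8pos they were at 1.92% and 3.48% for cluster 6 and at 3.45% and 0.709% for cluster 7. The 1 member CpG called higher in Div8neg lies in cluster 7, at 120052090, with 9 of 31 and 5 of 32 reads methylated in Div8neg. It had 0 of 25 and 0 of 36 reads methylated in Div0, which allow up to 12% and 8.33% methylation by counting error alone. The clusters' differences fell under 10 points without Div0 or Div8neg of host 196 (cluster 6: 9.52 and 8.92), and without Div0 of host 196 or Div8neg of host 197 (cluster 7: 9.64 and 9.51). At promoter CpGs of B cell genes the same 2 Div8neg libraries had 6.25% and 1.19% at Cd79a and 1.18% and 5.22% at Pax5. In them the promoter CpGs of Cd3e, Cd4 and Cd5 were at 89.5% to 97.1%, those of Itgam at 82.6% and 86.0%, those of Mpo at 50.9% and 40.5% and those of Cebpa at 2.54% and 2.59%. The part of other cells or of the Div8neg libraries themselves in these values was not tested, and a mixture of cells cannot be told apart from partial methylation in every cell.

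Prkcb had the single largest fall of any member CpG, at chr7:129542313 in an intron 109674 bp downstream of the start site. It had 0 of 11 reads methylated in host 196, a count that allows up to 27.3%, and 26.3% (95% Wilson interval 16.6 to 39.0%) in host 197 in Div8pos, against 100% in both hosts in Div0. The difference was -86.8 points (quasi-binomial adjusted p = 5.46e-16), and Div8neg was between these levels at 63.6% and 65.2%. Closer to the start, 3576 bp downstream, the CpG at 129436215 had 20.0% and 9.3% in Div8pos, 57.1% and 37.9% in Div8neg and 100% and 80% in Div0. Cluster 7 (chr7:129539488-129539644), with 3 intronic CpGs, had 3.17% and 2.92% in Div8pos, 10.6% and 19.4% in Div8neg and 28.7% and 27.4% in Div0 (Div8pos against Div0 -25.0, limma adjusted p = 0.000645). Of its 3 CpGs 1 was called, at 129539488, with a mean of 1.61% in Div8pos and 75.6% in Div0, while the other two differed by -1.62 and 0.614 points. Clusters 6, 8, 4 and 5 had differences of -17.5, -17.4, -15.6 and -11.7 points. The start-site cluster 2, with 13 CpGs, was between 0.683% and 2.02% in all 12 samples.

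Cd22, the inhibitory co-receptor, had its largest cluster difference in a compact intronic stretch. Cluster 5 joins 20 CpGs at chr7:31658616-31659287 (mm9), 4069 to 4740 bp downstream of the nearest of the gene's start sites. From Div0 to Div8pos it was at 84.1, 81.0, 80, 74.2, 73.6 and 67.3% in host 196, and 82.4, 80, 80.8, 76.9, 72.0 and 68.8% in host 197. The difference was -15.2 points for Div8pos (SE 1.34, limma adjusted p = 0.000154) and -10.5 for Div8neg (limma adjusted p = 0.00464), each against Div0. Within it, 5 CpGs were called, from 31658624 (18.3% and 20.5% in Div8pos, 63.6% and 54.3% in Div0) to 31659220, the second largest fall being at 31658925 (difference -33.9). About 300 bp away cluster 4, in an exon, was between 2.46% and 12.4% in all 12 samples. Near the start sites the promoter-class CpG at 31664858 had 0 of 27 and 0 of 48 reads methylated in Div8pos, which allows up to 11.1% and 6.25%. It was at 46.7% and 19.5% in Div8neg and at 28.6% and 32.6% in Div0 (Div8pos against Div0 -30.6, quasi-binomial adjusted p = 6e-06; against Div8neg -33.1, quasi-binomial adjusted p = 0.00053). The difference of cluster 1 was -10.1 points, -6.01 in host 196 and -14.2 in host 197, and the 10-point limit was missed without Div8pos of host 197 (-6.0). Clusters 2 and 3, in exons and introns, were also lower in Div8pos than in Div0, by less than that limit (-9.24 and -9.04 points).

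Between the 2 most divided fractions, 12 of the 503 CpGs (2.39%) were lower in Div8pos than in Div8neg and 0 were higher, against 0.636% and 0.00697% of all CpGs. Blnk held 5 of the 12, Syk 3, and Lyn, Plcg2, Cd22 and Prkcb 1 each. At the level of clusters 8 of 67 (11.9%) were lower, against 7.57% of all, and 0 were higher, against 0.0927%. They were Blnk clusters 5, 6 and 7, Plcg2 clusters 5 and 7, Prkcb clusters 6 and 7 and Bank1 cluster 4. Of these 8, Blnk clusters 5 and 6 and Bank1 cluster 4 passed with any 1 of the 4 libraries left out, and the other 5 missed a limit without at least 1 library. The count of CpGs was between 3 and 5 with any 1 of the 4 Div8pos and Div8neg libraries left out. In Div8neg against Div0, 24 CpGs (4.77%) were lower, against 0.781% of all, with 7 in Syk and 5 each in Blnk and Prkcb. The 1 higher CpG (0.199%, against 0.0397% of all) is the one of Plcg2 described above. The 24 became 8 without Div0 and 5 without Div8neg of host 197. In Div5 against Div0, 8 CpGs (1.59%) were lower, against 0.123% of all, and 0 were higher, against 0.00552%. These were 5 CpGs of Syk and 3 of Blnk, and the count was 2 without Div0 or Div5 of host 197 and 5 without Div0 of host 196. Of the clusters 2 (2.99%) were lower in Div5, Syk cluster 4 and Blnk cluster 7, against 0.199% of all clusters, and 0 were higher, against 0.00488%. Without Div0 of either host or Div5 of host 197 the count was 1.

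Other genes of the pathway were read from a list of 40, of which 35 had at least 5 CpGs. In Div8pos against Div0, 10 of the 35 were lower by limma, against 16% of all genes, and 0 were higher, with a median difference of -6.91 points over the 35 and -5.8 over all genes. Rasgrp1, an exchange factor that activates Ras, had 49.8% and 49.1% in Div8pos, against 81.8% and 77.6% in Div0 (-30.2 points, limma adjusted p = 2.48e-06). Its relative Rasgrp3, which is recruited by the product of phospholipase C, had 57.7% in both hosts in Div8pos and 83.1% and 83.2% in Div0 (-25.4 points, limma adjusted p = 3.51e-07). Among inhibitory receptors, Fcgr2b and Pirb had differences of -19.4 and -17.2 points. Vav2, an exchange factor, the adaptors Pik3ap1 and Dapp1, the kinase Csk, which inhibits Src-family kinases, and the transcription factor Nfatc1 had differences of -12.3, -11.7, -10.7, -11.5 and -10.2 points. The call of Dapp1 fell under the limit without Div0 of host 196 (-8.45) and that of Nfatc1 without Div8pos of host 197 (-9.74). With at least 20 reads in every sample, Csk (-4.87) and Dapp1 (-9.51) were under the limit. Only 6 of the 16 called values of pathway genes, counted over the comparisons, could be fitted at that setting. Rasgrp1, Rasgrp3, Fcgr2b and Pirb rested on 8, 11, 14 and 16 CpGs. In Div8neg against Div0, 3 of the 35 were lower, against 1.34% of all genes: Rasgrp3 (-14.5), Fcgr2b (-11.9) and Rasgrp1 (-11.1), the last of which was under 10 points without Div0 of host 196 (-8.96) or Div8neg of host 197 (-8.74) and did not pass with summed reads (limma adjusted p = 0.0762). Between Div8pos and Div8neg 3 were lower, against 1.94% of all genes, among them Rasgrp1 (-19.2) and Rasgrp3 (-10.9). The call of Rasgrp3 was lost without Div8neg of host 196 (-9.74) and with summed reads (-9.76, limma adjusted p = 0.0512). In Div5 against Div0 none of the 35 was lower, against 0.101% of all genes. The receptor's own signalling chains Cd79a and Cd79b, and Btk, Siglecg and Lat2, had fewer than 5 CpGs.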

How the data were processed

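Per the labels' protocols, DNA was cut with MspI and TaqI, bisulfite-treated, amplified by PCR and read as single ends. The submitters' processing notes name Bismark, Bowtie2 and the build mm9, without versions. The deposited table gives methylated and unmethylated read counts per CpG and sample, per the file headers, with at least 10 reads everywhere. It also gives the level as a fraction, per the file headers, equal to methylated over all reads to within 5.55e-16. A second deposited table pools both hosts. Start sites, classes and nearest genes are the files' own, 65092 CpGs having no symbol. Distances to start sites were computed within mm9. PCR reads without molecular identifiers are not independent, so intervals and limits from counts of 0 cover counting error only.

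Each CpG was fitted over all 12 samples with a quasi-binomial logistic model, its dispersion moderated with squeezeVar of limma 3.58.1 (R 4.3.3), which gave 1.16 for all CpGs. Clusters of at least 3 CpGs and genes of at least 5 were tested as mean percent methylation with limma. All p-values are two-sided and Benjamini-Hochberg adjusted over the whole table. Models were tested on data simulated with a dispersion of 1.16 at every CpG. Such data cannot show how the calls hold where CpGs differ in spread. Replicates are 2 host animals, and the labels give the fractions of a host to 1 animal. Host deviations correlated between -0.00522 and 0.0121 over the 15 pairs of fractions (83552 CpGs), and the main fits have no host term. No library was a copy of another.

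The members, lists, tests and alternatives were chosen with earlier results of these data known. The text names, within each gene, the cluster nearest a start site, each cluster called in Div8pos against Div0, the cluster with the largest difference and the 2 called CpGs with the largest falls. It also names up to 10 called pathway genes and, for each called gene, the 2 other genes most alike. Other CpGs and clusters were named after their values were seen. The counts of the marker and pathway lists include 1 gene that is not reported here.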

Additional observations from a re-analysis of the deposited data

How the results depend on the processing

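The host number as a replicate block gave 70, 22, 10 and 7 lower CpGs for Div8pos against Div0, Div8neg against Div0, Div8pos against Div8neg and Div5 against Div0, where 70, 24, 12 and 8 are reported, and changed no count of clusters or genes and no call among the 16 single CpGs, 45 cluster values, 32 gene values and 16 values of pathway genes fitted with it. In the same order of comparisons, at least 20 reads in every sample (189 of the 503 CpGs and 26 of the 67 clusters remained) gave 18, 5, 4 and 3 CpGs and 4, 0, 1 and 0 clusters, 2 genes in Div8pos against Div0 and 0 in Div8pos against Div8neg. A dispersion for each CpG alone gave 0, 0, 0 and 0 CpGs, with 67, 29, 24 and 19 at an unadjusted p below 0.05 and 20 points. Of all 760348 CpGs, 49943, 11750, 13433 and 2593 met that unadjusted limit. The arcsine square root with limma gave 5, 0 and 0 CpGs in the last 3 comparisons, and a limit of 10 points gave 124 in the first. Leaving out 1 library at a time gave 41 to 74, 5 to 19, 3 to 5 and 2 to 6 CpGs, 22 to 28, 4 to 9, 6 to 9 and 1 to 2 clusters, and 5 to 6, 0 to 0, 0 to 1 and 0 to 0 genes. In Div8neg against Div0, 1 gene was called within 50 kb of a start site (Blk, -12.2) and 1 with summed reads (Cd22, -10.7).

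Of 256 gene-level alternatives of the members, 236 kept direction and side of the limit, 11 lost the call, 2 gained one and 7 changed sign. Those that changed sign were not called either way. They were Lyn with summed reads in Div8pos against Div8neg (3.27 points) and in Div5 against Div0 (1.81), and with at least 20 reads Blnk in Div8neg against Div0 (2.36), Blk in Div8pos against Div8neg (0.839) and in Div5 against Div0 (1.58) and Plcg2 in Div5 against Div0 (0.378). Blk in Div5 against Div0 also changed when 1 library was left out, with a range of -3.27 to 1.73. In Div8pos against Div0, calls were lost for Prkcb within 50 kb (-7.89), Blk with summed reads (-8.17) and, with at least 20 reads, Blk (-2.53), Blnk (-6.69), Bank1 (-7.34) and Prkcb (-7.35). Of 325 cluster alternatives 272 kept the call and 53 lost it, none with a change of sign, and of 117 for named CpGs 97 kept it and 20 lost it, 16 of them with a dispersion for each CpG alone. Apart from the construction of each alternative, the cause was not tested. Precision is limited by 2 hosts per fraction and by as few as 10 reads per CpG in a library.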

Other observations

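The second deposited table holds the authors' pooled values of both hosts, for which no error can be given, at 517 further CpGs of the 8 genes. Their mean was 61.5% in Div8pos and 74.1% in Div0, 115 (22.2%) were lower by at least 20 points in Div8pos and 0 were higher by as much. Among all 879250 CpGs of that table that the first table does not hold, 14.7% were lower and 0.438% higher by as much. By gene the share was 56% in Blnk (14 of 25 CpGs) and 31% in Bank1 (22 of 71), down to 12.5% in Lyn (5 of 40). The 63 of them within 1 kb of a start site averaged 5.19% in Div8pos and 6.21% in Div0. Beside Syk cluster 4, 4 further CpGs within 62 bp had pooled levels of 9.52% to 26.9% in Div8pos and 73.3% to 100% in Div0, each from 15 to 42 reads in those fractions. Beside Blnk cluster 6 the CpG at chr19:41066664 (mm9), 16 bp away, had 2.56% in Div8pos and 87.2% in Div0, with 32.1% in Div5 and 28.0% in Div8neg. The CpG at chr19:41066754, 106 bp away, had 2.86% in Div8pos and 23.5% in Div0, with 8.7% in Div5 and 42.9% in Div8neg.

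For the 6 genes called in Div8pos against Div0, the most alike of all other genes were found by the root mean square difference over 10 values, the 5 later fractions of each host minus its Div0. Nearest to Blnk were Hvcn1, a proton channel of B cells (1.7 points), and Cnr2, a cannabinoid receptor of immune cells (1.71 points). Nearest to Cd22 were Wbscr25 (0.695 points) and Foxp1, a transcription factor of B cell development (0.767 points, 273 CpGs). Bank1 was nearest to Mettl8 (0.435 points) and Pabpc2 (0.458 points), Prkcb to Tex264 (0.6 points) and Rxfp1 (0.684 points), Syk to Cdkl4 (0.794 points) and Prpf38a (0.832 points), and Blk to Anapc1 (1.25 points) and Sdr9c7 (1.31 points). Their differences between Div8pos and Div0 lay between -10.4 and -16.5 points. The measure was taken over all 16816 genes and carries no test.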
